A study of Homo sapiens with 11 samples.

Results

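The enzymes of cholesterol and fatty acid synthesis and the proteins that control them were examined after transfection of small RNA duplexes into PC-3, a line grown from a human prostate cancer. The group was defined by 31 gene names in the scanner files, and all 31 were found, with 50 of the 41000 probes on the array. Of these genes 18 are sterol synthesis enzymes, 8 are fatty acid synthesis enzymes, and 5 are regulators or a sterol carrier. The study set RNA duplexes with a shared seed, which is the short stretch near the 5′ end of a miRNA that pairs with its targets, against cells given the transfection reagent alone, called mock. RNA was taken 24 h after transfection and hybridised in 1 colour to 11 Agilent whole human genome arrays, each with 150 ng of RNA mixed from 4 transfections. The arrays lie in 3 groups by slide, called sets, and keep the numbers of their labels. The mock arrays were sample 1 in set 1, sample 8 in set 2, and samples 9 and 11 in set 3. Set 1 also held dsEcad640 as sample 2, miR-302a as sample 3 and miR-372 as sample 4. A repeat of miR-372 as sample 10 and miR-520c as sample 12 completed set 3, and miR-373 as sample 7 and miR-520f as sample 6 completed set 2. All groups share the cell line and the reagent, and dsEcad640 is a synthetic duplex with the seed of the miRNAs. Every duplex but miR-520f carries that seed, and these are named common-seed duplexes here, with 6 arrays against 4 mock arrays. The array of miR-520f is given as miR-530f in 1 of its labels and as miR-520f in the others, and it was kept apart because its seed is shifted. Each array holds a mixture, and it is not stated whether the mock arrays came from separate mixtures. The p-values therefore measure the spread between arrays, which may be technical. In the common-seed comparison different duplexes were treated as arrays of 1 group, so the spread there also includes differences between duplexes.

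Cholesterol is built from acetyl-CoA through mevalonate, isoprenoid units, squalene and lanosterol, and fatty acids are built from the same acetyl-CoA through malonyl-CoA. Both routes are governed by the sterol regulatory element-binding proteins, SREBF1 and SREBF2, which are held in the endoplasmic reticulum by SCAP and INSIG1 when sterols are plentiful and are released to switch on the enzymes when sterols are scarce. Prostate cancer cells are known for active lipid synthesis, and genes of this pathway often move together.

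The mature sequences of the miRNAs are shown because the duplexes are grouped by them, with the seed from base 2 to base 8 in capitals (RefSeq, build GRCh38.p14).
hsa-miR-302a-3p: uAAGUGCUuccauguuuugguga
hsa-miR-372-3p: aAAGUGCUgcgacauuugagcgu
hsa-miR-373-3p: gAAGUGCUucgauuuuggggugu
hsa-miR-520c-3p: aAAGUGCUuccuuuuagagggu
hsa-miR-520f-3p: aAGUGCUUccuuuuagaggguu
The 4 miRNAs with common-seed arrays share AAGUGCU, which pairs with AGCACTT in a target. miR-520f has AGUGCUU, which pairs with AAGCACT. Among the members, the study's list of decreased transcripts with an AGCACTT site holds MVK with 1 probe and HSD17B7 with 2 probes, each with 1 such site. That list was drawn from these same arrays and is no independent evidence of a direction, and transcript sequences were not analysed here.

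Promoters were searched for the motifs of the pathway, since its genes share regulators. RefSeq windows of 250 bases before to 50 bases after a gene's start were at hand for 27 of the 31 genes (37 windows, GRCh38.p14), and both strands were read. The sterol regulatory element written TCACNCCAC was found in 1 member window, that of SREBF2, against 1.13% of all 35116 windows. Its variant TCACNCGAC was found in 4 member windows (10.8%), those of FDPS, HSD17B7, ACSS2 and FADS2, against 0.308% of all windows. CCAAT, the motif of NF-Y, stood in 67.6% of the member windows and 34.6% of all, and GGGCGG, the motif of Sp1, in 89.2% and 45.0%. The windows below have the motif in capitals, on the strand of the gene, and show the element in a regulator and in 2 enzymes and the paired CCAAT of STARD4, whose value the results turn on.
SREBF2, chr22:41832960-41832992, plus strand: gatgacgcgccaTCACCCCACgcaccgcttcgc
FDPS, chr1:155308714-155308746, plus strand: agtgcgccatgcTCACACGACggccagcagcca
HSD17B7, chr1:162790592-162790624, plus strand: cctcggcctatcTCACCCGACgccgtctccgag
STARD4, chr5:111512649-111512708, minus strand: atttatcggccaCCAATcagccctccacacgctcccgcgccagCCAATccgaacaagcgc
The elements lie 133 bases before the start of SREBF2, 140 before that of FDPS and 98 before that of HSD17B7, and the CCAAT copies of STARD4 lie 161 and 130 bases before its start. A match is a description of these letters only.

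All levels are log2 processed signals minus the 75th percentile of their array, so a difference of 1 is a doubling, and levels are compared between arrays for 1 probe and not between probes. All 50 member probes were well above background on at least 6 arrays and entered the tests, and 45 of them were well above background on all 11. Across arrays, 54.3% to 72.7% of all probes were well above background, except on miR-372 sample 4, where it was 88.1%. The number of arrays limits the precision. The other 5 probes, 2 of ACACA and 1 each of LSS, SCD and SC5DL, were not well above background on miR-520f sample 6, and 3 of them also not on miR-373 sample 7. On miR-372 sample 4 each of these 5 had its highest level, for example -2.27 for the SCD probe A_24_P626920 against -5.31 to -4.03 on the other arrays, and the part of this array in their results was not tested except where its omission is given. KRT8, KRT18, TACSTD1 (the older name of EPCAM) and VIM, which PC-3 cells express, were well above background on all arrays, and the probes of PTPRC and COL3A1, markers of leukocytes and fibroblasts, on at most 5. Of the 11 tested marker probes, 5 of KRT8 and KRT18 rose under the common-seed duplexes, by 0.50 to 0.88, and their part in the members' values was not tested.

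Of the 50 member probes 1 passed the test under the common-seed duplexes, the only probe of STARD4, a carrier that moves sterols between membranes, and it fell by 0.68. The 6 common-seed arrays were set against the 4 mock arrays by limma with the set as a block and Benjamini-Hochberg adjustment over all 27118 probes tested. Over all probes 1137 (4.19%) passed an adjusted p of 0.05, and among the members it was 1 of 50 (2%). At an unadjusted p under 0.05 there were 9 of the 50 member probes (18%) and 5722 of the 27118 probes overall. The median difference over the 50 member probes was -0.07, against 0.03 over all probes. By role, the medians were -0.09 over 29 probes of sterol synthesis, 0.07 over 14 probes of fatty acid synthesis and -0.09 over 7 probes of regulators and transport. The 95% intervals of 31 member probes lay within 0.5 of 0 on the log2 scale, against 43.5% of all probes, and those of 48 lay within 1, against 81.7%. The exceptions at 1 were the dim probes SC5DL A_32_P41026 and SCD A_24_P626920, whose intervals reached 1.25 and 1.21. In RNA from whole cultures, fewer cells with a transcript and less transcript per cell cannot be told apart.

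STARD4 was measured by the probe A_23_P327519, at 110862587 to 110862646 on chromosome 5 of hg18. Its level was -1.19 on mock sample 1, -1.01 on mock sample 8, -0.86 on mock sample 9 and -1.18 on mock sample 11. Under the common-seed duplexes it was -1.74 with dsEcad640, -1.97 with miR-302a, -1.67 and -1.49 with miR-372 in sets 1 and 3, -1.98 with miR-373 and -1.74 with miR-520c. All 6 common-seed arrays lay below all 4 mock arrays, and miR-520f sample 6, at -1.73, did too. Within the sets the differences from mock ran from -0.97 under miR-373 to -0.47 under miR-372 sample 10. The mock mean was -1.06 ± 0.16 (SD, n = 4), and the limma estimate of -0.68 (standard error 0.12, 95% interval -0.96 to -0.41, adjusted p = 0.0262) corresponds to 0.622 of the mock level. Over all settings tried the estimate stayed between -0.76 and -0.54, with adjusted p from 0.00868 to 0.147. The call was lost without mock sample 1 (adjusted p = 0.147), without mock sample 8 (0.0930), without mock sample 9 (0.0749) and without a filter on dim probes (0.0893), and it was kept without miR-372 sample 4 (0.0187). STARD4 is not in the study's list of decreased transcripts with a site.

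Among the sterol enzymes 0 of 29 probes passed the adjusted threshold, 7 had an unadjusted p under 0.05, and the estimates were below 0 for 21 probes and above 0 for 8. HSD17B7, which reduces a ketone during the removal of the methyl groups of lanosterol, had the lowest estimates. Its probe A_23_P11859, within 161039923 to 161040713 on chromosome 1, had -0.95, -0.87, -0.43 and -0.54 on mock samples 1, 8, 9 and 11. It had -1.31 under dsEcad640, -1.07 under miR-302a, -1.28 and -1.10 under miR-372 in sets 1 and 3, -1.15 under miR-373 and -1.43 under miR-520c, with no overlap between the groups. The estimate was -0.50 (standard error 0.13, interval -0.80 to -0.20) with an adjusted p of 0.0749 in limma. A second probe, A_32_P52282, gave -0.49 (adjusted p = 0.0773), but it overlaps the first in position, so the pair is not independent. Both probes passed with the set as a random block, with miR-520f added to the group, or when probes had to be well above background on all arrays, and the estimate of the first stayed between -0.61 and -0.42 over all settings. RefSeq lists a related pseudogene, HSD17B7P2, whose signal was not separated here.

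MVK, the kinase that phosphorylates mevalonate, had 2 probes on chromosome 12. The brighter one, A_23_P105592 at 108519324 to 108519383, had 3.77 and 3.73 on mock samples 1 and 8 and 3.66 and 4.10 on mock samples 9 and 11. Under the duplexes it had 2.94 with dsEcad640, 3.26 with miR-302a, 3.28 and 3.47 with miR-372, 3.38 with miR-373 and 3.71 with miR-520c, each below the mock of its set but overlapping the mock range. The estimate was -0.41 (standard error 0.13, adjusted p = 0.123), and it passed only with the authors' normalized values (-0.47, adjusted p = 0.0385). The dimmer probe, A_24_P372901 at 108508230 to 108508289, is the one in the study's list of decreased transcripts. It was below the mock of its set on 5 of 6 arrays, with 0.75 above mock on miR-372 sample 4, and its estimate was -0.24 (standard error 0.27, adjusted p = 0.692).

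IDI1, which isomerises the isoprenoid unit, had 0.65, 0.67, 1.05 and 0.93 on mock samples 1, 8, 9 and 11, and 0.74 under dsEcad640, 0.51 under miR-302a, 0.57 and 0.51 with the miR-372 arrays, 0.22 with miR-373 and 0.36 with miR-520c. The groups overlapped. Its differences from the mock of the set were 0.09 under dsEcad640, -0.14 under miR-302a, -0.08 and -0.48 with the miR-372 arrays, -0.45 with miR-373 and -0.63 with miR-520c, so that the lowest were in sets 2 and 3. The estimate was -0.36 (standard error 0.11, adjusted p = 0.118). PMVK and FDPS, the kinase after MVK and the synthase of farnesyl diphosphate, were below the mock of their set on 6 of 6 arrays by at most 0.36, with estimates of -0.19 (adjusted p = 0.377) and -0.17 (adjusted p = 0.313).

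The early enzyme HMGCS1, which makes HMG-CoA, and the squalene enzymes FDFT1 and SQLE lay on the other side of 0. HMGCS1 was above the mock of its set on 6 of 6 arrays with both probes, by 0.09 to 0.45 and by 0.10 to 0.64, with estimates of 0.25 (adjusted p = 0.154) and 0.25 (adjusted p = 0.218). FDFT1, which joins farnesyl units into squalene, was above mock by 0.08 to 0.24 and had an estimate of 0.17 (standard error 0.07, adjusted p = 0.184). SQLE, which oxidises squalene, had 2.93 and 2.96 on mock samples 1 and 8 and 3.61 and 3.98 on mock samples 9 and 11. Under the duplexes SQLE had 3.43 with dsEcad640, 3.10 with miR-302a, 3.17 with miR-372 sample 4, 3.01 with miR-373, 4.01 with miR-372 sample 10 and 4.45 with miR-520c. Its mock arrays of set 3 were higher than all common-seed arrays of sets 1 and 2, and within sets its estimate was 0.31 (standard error 0.14, adjusted p = 0.258). No member probe was called higher in any setting tried for the common-seed comparison.

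The remaining sterol enzymes, ACAT2, MVD, LSS, CYP51A1, TM7SF2, SC4MOL (now MSMO1), NSDHL, EBP, SC5DL (now SC5D) and DHCR7, had estimates between -0.15 and 0.38, and the highest was that of the dim SC5DL probe A_32_P41026. NSDHL, which acts beside HSD17B7 in removing the methyl groups, had -1.06, -1.10, -1.47 and -1.76 on mock samples 1, 8, 9 and 11, and -1.08, -1.05, -0.98, -1.08, -1.72 and -1.91 under dsEcad640, miR-302a, miR-372 sample 4, miR-373, miR-372 sample 10 and miR-520c. Mock and duplex arrays alike were lower in set 3, and the estimate was -0.08 (standard error 0.10, interval -0.30 to 0.14), or 0.04 in a fit that left the sets out. LSS, the cyclase that forms lanosterol, had 0.13, -0.11, 0.25 and 0.18 with its 4 probes, of which the first and the third overlap in sequence and the first turned to -0.08 after quantile normalization. SC5DL had -0.15, -0.08 and 0.38. EBP and DHCR7, which act at the end of the route, had -0.01 and -0.03 each with a standard error of 0.09.

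In the fatty acid branch 0 of 14 probes passed, 1 had an unadjusted p under 0.05, and 10 had estimates above 0. FASN, the multienzyme that assembles palmitate, was above the mock of its set on 6 of 6 arrays. It had -2.42 on mock sample 1 and -2.54 on mock sample 8 against -2.37, -2.19, -1.77 and -2.47 under dsEcad640, miR-302a, miR-372 sample 4 and miR-373. In set 3 it had -3.39 and -3.73 on the mock arrays and -3.25 and -3.02 under miR-372 and miR-520c, so it was lower on every array of that set than on every array of the others. Its estimate was 0.31 (standard error 0.15, adjusted p = 0.277). ELOVL6, which lengthens palmitate, was also above mock on 6 of 6 arrays, by 0.14 to 0.55, with an estimate of 0.30 (standard error 0.13, adjusted p = 0.228), and mock samples 9 and 11 differed by 0.57 for this probe.

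ACLY, which supplies acetyl-CoA from citrate, had an estimate of 0.03 (standard error 0.10). ACSS2, which makes acetyl-CoA from acetate, had 0.48, 0.60, 0.23 and -0.24 on mock samples 1, 8, 9 and 11 with its brighter probe, and 0.18, 0.36, 0.27, 0.48, 0.14 and -0.19 under the duplexes in the order used for NSDHL, all within the mock range. Its 2 probes had estimates of -0.11 and 0.03. Of ACACA, which makes malonyl-CoA, both probes were dim. The brighter had -3.98, -4.04, -4.68 and -4.88 on mock samples 1, 8, 9 and 11, and -4.04, -3.84, -2.62, -4.22, -4.81 and -4.84 under the duplexes in the same order. miR-372 sample 4 stood apart from the rest, 1.37 above mock with this probe and 1.33 with the other, and both estimates were 0.10 (standard errors 0.28 and 0.37). The desaturase SCD had estimates of -0.02, 0.27 and -0.21, and its probe A_32_P163858 was 0.93 below the mock mean under miR-520c, where the mock arrays of that set differed by 0.61. For the desaturases FADS1 and FADS2 the estimates were -0.07 and 0.18, and 0.01 and 0.13. Without miR-372 sample 4 the brighter ACACA probe had -0.05 in place of 0.10. The estimates of the dimmer ACACA probe and of the brighter FADS2 probe turned to -0.05 after quantile normalization.

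**Figure D1:**
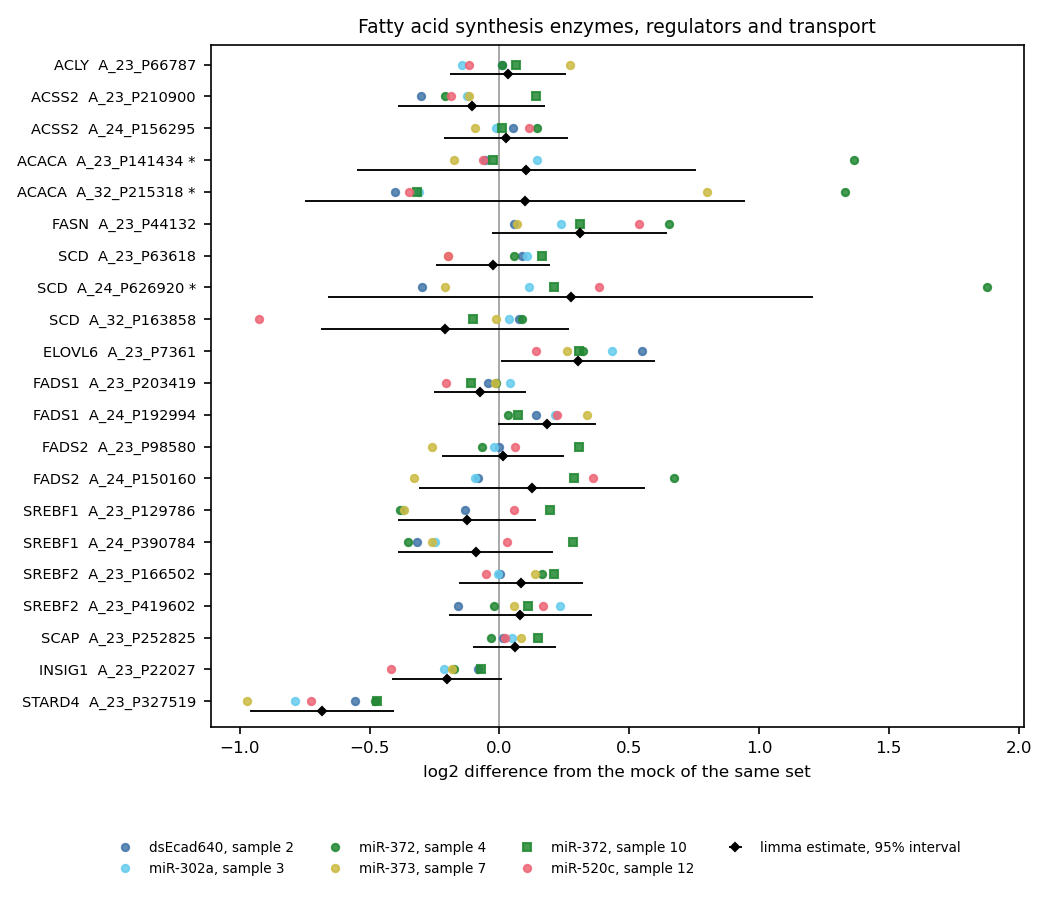
Differences from the mock arrays of the same set (log2, horizontal axis) for the 14 probes of fatty acid synthesis enzymes and the 7 probes of regulators and transport, drawn as for the sterol enzymes. STARD4 lies below 0 on all 6 arrays with an interval from -0.96 to -0.41, and the starred probes of ACACA and SCD reach 1.33 to 1.88 on miR-372 sample 4.

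Of the regulators SREBF1, SREBF2, SCAP and INSIG1, 0 of 6 probes passed. SREBF1 had 2.98, 2.96, 3.13 and 3.02 on mock samples 1, 8, 9 and 11 with its brighter probe. Under the duplexes it was 2.85, 2.61, 2.60 and 2.59 in sets 1 and 2 and 3.27 and 3.13 in set 3, that is, 0.13 to 0.38 below mock on 4 arrays and 0.05 to 0.19 above mock on 2. The estimate was -0.12 (standard error 0.12, adjusted p = 0.609), and the second probe gave -0.09. SREBF2 had 0.24, 0.21, -0.15 and -0.59 on the mock arrays in the same order, and 0.08, 0.47, 0.22 and 0.26 under dsEcad640, miR-302a, miR-372 sample 4 and miR-373, and -0.26 and -0.20 under the duplexes of set 3. Its estimates were 0.08 with both probes (standard errors 0.12 and 0.10), and that of the dimmer probe was -0.05 after quantile normalization.

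SCAP, the escort of the SREBF proteins, had 3.30, 3.34, 3.12 and 3.13 on mock samples 1, 8, 9 and 11, and 3.32, 3.35, 3.27, 3.42, 3.28 and 3.15 under the duplexes in the order used for NSDHL. These ranges overlapped, with an estimate of 0.06 (interval -0.10 to 0.22) that became -0.01 after quantile normalization. INSIG1, the anchor of that complex and itself a target of it, was -0.40, -0.48, -0.37 and -0.48 on the mock arrays, the smallest spread of all members (SD 0.06). It was -0.48, -0.61 and -0.57 in set 1, -0.67 under miR-373, and -0.50 and -0.84 under miR-372 and miR-520c in set 3. Each was below the mock of its set, but dsEcad640 lay at the level of mock samples 8 and 11, and the estimate was -0.20 (standard error 0.09, interval -0.41 to 0.01, adjusted p = 0.259).

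On each array a smaller share of member probes than of all probes stood away from mock, which is given as a description with no test. Among the 45 member probes well above background on all arrays, the share at least 0.5 from the mock of the set was 13.3% under dsEcad640, against 17.2% of all 21404 such probes. It was 4.44% under miR-302a against 9.24%, 11.1% under miR-372 sample 4 against 19.9%, and 2.22% under miR-373 against 7.8%. In set 3 it was 4.44% under miR-372 sample 10 against 12.4% and 20% under miR-520c against 31.7%. Between mock samples 9 and 11, where no duplex was given, the shares were 8.89% and 12.3%. Thus only dsEcad640, miR-372 sample 4, miR-520f sample 6 and miR-520c gave larger shares of members than the pair of mock arrays did. These shares are not like measures. Duplex arrays of set 3 were set against the mean of mock samples 9 and 11, while the mock pair is a difference of single arrays.

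**Figure D2:**
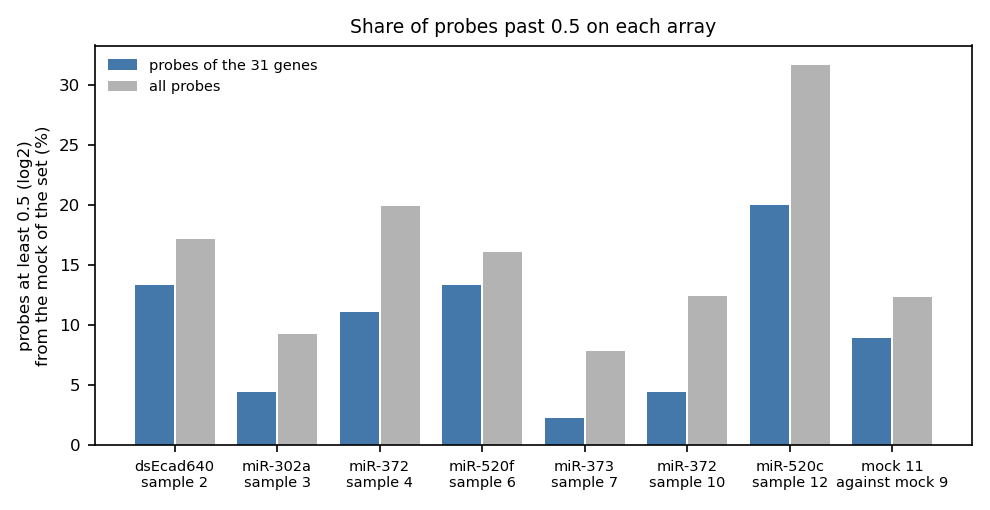
Share of probes at least 0.5 on the log2 scale from the mock of their set (%, vertical axis) on each duplex array and between mock samples 11 and 9, for the 45 member probes (blue) and all 21404 probes (grey) that were well above background on all 11 arrays. The blue bar is the lower of the pair in every case, and miR-520c has the highest bars, 20% and 31.7%.

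Below the mock of the set on all 6 common-seed arrays were 8 of the 45 member probes (17.8%), of ACAT2, FDPS, HSD17B7, INSIG1, MVK, PMVK and STARD4, against 13.7% of all probes. Above it on all 6 were 7 (15.6%), of ELOVL6, FADS1, FASN, FDFT1, HMGCS1 and SQLE, against 19.6%. Arrays of a set share their mock arrays, so these directions are not independent. With levels free of the sets, 3 member probes (6.67%), of HSD17B7 and STARD4, were lower on all 6 common-seed arrays than on all 4 mock arrays, against 4.04% of all probes, and 0 were higher, against 3.92%.

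When each duplex was fitted with its own mean and the set as a block, limma called 0 member probes under every duplex, and 0 of all probes (0%), with 2 residual degrees of freedom and 965 to 4593 of all probes at an unadjusted p under 0.05. At an unadjusted p under 0.05 the fit had 1 member probe under dsEcad640, miR-302a and miR-373 each, 2 under miR-520f, 3 under miR-372 and 6 under miR-520c. The medians over the member probes on the arrays were 0.01 under dsEcad640, -0.01 under miR-302a, -0.03 and 0.01 with the miR-372 arrays, -0.08 with miR-373 and -0.12 with miR-520c, and that of mock sample 11 against mock sample 9 was -0.01. The highest members differed between arrays. Among the 45 probes HMGCS1 was the highest under dsEcad640 and miR-302a, 0.64 and 0.45 above mock, and SC4MOL under miR-372 sample 4, 0.85 above mock, where its difference on the other 5 arrays lay between -0.30 and 0.19. STARD4 was the lowest under miR-302a, miR-373 and miR-520f, MVK under dsEcad640 and miR-372 sample 4, and HSD17B7 under miR-372 sample 10 and miR-520c.

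Under miR-520f, whose seed is shifted by 1 base, 33 of the 45 probes lay below mock sample 8 and 12 above. The median was -0.18, against -0.04 over all probes. Under miR-373, set against the same mock array, 32 lay below and 13 above, with a median of -0.08 against -0.01. Under miR-520f the share at least 0.5 away was 13.3%, against 16.1% of all probes. STARD4 was 0.71 below mock, HSD17B7 0.65 and 0.58 and MVK 0.33 and 0.59. HMGCS1 was 0.28 below mock with one probe and 0.39 above it with the other. Against the common-seed duplexes limma called 0 member probes, and 18 of all 27070 probes (0.0665%). At an unadjusted p under 0.05 there were 4 of the 50 member probes and 2013 of the 27070 probes. For STARD4 the difference of miR-520f from the common-seed duplexes was 0.11 with a 95% interval from -0.42 to 0.64, and for HSD17B7 it was -0.26 with an interval from -0.83 to 0.32, and miR-520f had 1 array. The dimmer SREBF2 probe had -0.60 (interval -1.05 to -0.15, adjusted p = 0.464).

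Among the 4 mock arrays the SD of a member probe had a median of 0.24, against 0.29 over all probes, and ran from 0.06 for INSIG1 to 0.86 for FADS2. Mock samples 1 and 8, of sets 1 and 2, differed by a median of 0.05 over the member probes, against 0.08 over all probes. Mock samples 9 and 11, both of set 3, differed by 0.20, against 0.22 over all probes. Between the mock arrays of set 3 and those of sets 1 and 2, limma called 13 of the 50 member probes, 8 lower and 5 higher, which is 26%, against 8957 of 27117 (33%) over all probes. Sets differ in slide and scan, and the RNA mixtures may differ too, and these cannot be told apart. Median differences were -0.07 over the members and -0.03 over all probes. The latter became 0.10 after quantile normalization and -0.27 after normexp background correction. After quantile normalization 6 member probes were called lower and 8 higher, against 35.9% of all probes called. After normexp correction they were 18 and 9, against 61.9% of all probes. Without mock sample 1 the calls were 3 and 0, without mock sample 8 they were 3 and 1, and without mock sample 9 they were 14 and 17, and without mock sample 11 they were 10 and 8, while the share of all probes called ran from 12.5% to 54.7% over these fits. In a fit of all 11 arrays the calls were 2 lower and 2 higher, of FADS2, FASN, HMGCS1 and SQLE, against 18.2% of all probes. The members called without mock sample 1 were FADS2, MVK and SCD, and those without mock sample 8 were FADS2, FASN, SCD and HMGCS1.

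Of the fatty acid enzymes, 4 of 14 probes were lower in set 3 and 1 was higher. FADS2 had -2.54 and -2.60 on mock samples 1 and 8 and -3.91 and -4.17 on mock samples 9 and 11 with the probe A_24_P150160, a difference of -1.47 (standard error 0.14, adjusted p = 0.00452), but only -0.17 with its brighter probe. SCD had -1.13 (adjusted p = 0.00484) with its dimmest probe and -0.29 and -0.07 with the others, which did not pass. FASN, with 1 probe, had -1.08 (adjusted p = 0.0124), which is 0.473 of the level in the other sets. These 3 calls held after quantile normalization and normexp correction, but that of FASN was lost without mock sample 1 (-1.02, adjusted p = 0.0568) and that of SCD in the fit of all 11 arrays. For ACACA one probe was lower by 0.77 and the other higher by 0.46, and after normexp correction both were lower. ACSS2, with -0.55 and 0.43, did not pass with either probe.

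Of the sterol enzymes, 3 of 29 probes were lower in set 3 and 4 higher. HMGCS1 had -1.85 and -1.75 on mock samples 1 and 8 and -0.87 and -0.84 on mock samples 9 and 11 with the probe A_23_P133263, a difference of 0.95 (adjusted p = 0.00758), and 0.40 with its other probe (adjusted p = 0.0661). SQLE was higher by 0.85 (adjusted p = 0.0228), a call lost without mock sample 1 (0.84, adjusted p = 0.105) and without mock sample 8 (0.87, adjusted p = 0.0908), and ACAT2 was higher by 0.54 with 1 of its 2 probes. SC5DL was higher by 0.73 with its dim probe, a direction that turned to -0.47 after normexp correction. MVK was lower by 0.91 (adjusted p = 0.0167) with the dimmer probe and had 0.13 with the brighter one, and TM7SF2, a sterol reductase, had -0.70 (adjusted p = 0.0290) and 0.22. NSDHL was lower by 0.54 with an adjusted p of 0.04997, just inside the threshold, and not after quantile normalization (-0.42, adjusted p = 0.0636). CYP51A1, which demethylates lanosterol, had 0.37 and -0.07, and LSS had -0.23, -0.31, 0.10 and 0.08, and none of these passed. Among the regulators 1 of 7 probes passed, the dimmer of SREBF1 with -0.83 (adjusted p = 0.0273), while the brighter had 0.11, and SREBF2 had -0.59 (adjusted p = 0.0663) and -0.31. STARD4 had 0.08, which became -0.20 after normexp correction, INSIG1 0.01 and SCAP -0.19.

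Probes of the same gene thus often differed between the sets. Several probes were present for 15 genes, and the direction of the set difference was not the same for 7 of them, ACACA, ACSS2, CYP51A1, LSS, MVK, SREBF1 and TM7SF2. Under the common-seed duplexes it was not the same for 5, ACSS2, FADS1, LSS, SC5DL and SCD, none of which passed with any probe. Along the genes, the probe nearest the 5′ end had the lower set difference in 10 of the 15 (66.7%), with a median of -0.28 against the probe nearest the 3′ end. Over all 5258 genes with several probes it was lower in 65.96%, with a median of -0.23, a comparison chosen after the values were seen, and its part in the set difference was not tested. For the common-seed duplexes the corresponding medians were -0.01 and -0.04.

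A further list of 22 genes of the pathway had 39 probes in the tests, and 0 of them passed under the common-seed duplexes. Their median was 0.07, and 8 had an unadjusted p under 0.05, against 5722 of all 27118 probes. Between the sets of mock arrays 7 were lower and 3 higher (25.6%), against 33% of all probes. ACSL3, which activates fatty acids, was higher by 1.103 (adjusted p = 0.00581). Among the other called probes were those of MBTPS1, SCD5, ME1, MYLIP, GPAM and NR1H2, which were lower, and of LPIN1 and a second GPAM probe, which were higher.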

How the data were processed

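The authors deposited scanner output of Feature Extraction 10.5.1.1 for each array. Per the file headers, its processed signal is an intensity that was background-subtracted and detrended on the array, without scaling across arrays. A second deposited table holds log2 values that the authors normalized set by set, by a method not given in the sources used here. Log2 processed signals had the array's 75th percentile subtracted, outlier spots were dropped, spots of a probe were averaged, and probes well above background on at least 6 of 11 arrays were kept. limma 3.58.1 in R 4.3.3 fitted all such probes with Benjamini-Hochberg adjustment at 0.05, and tables were made in Python 3.11.15 with pandas 2.3.3. The tests were also run on simulated data, where the smallest changes, of 0.5, were mostly missed in every fit. A doubling was mostly or always missed for miR-372, for the set difference and for miR-520f against the common-seed duplexes. The fit of a single-array duplex, miR-302a, recovered none of any size tried. A lack of calls in these fits therefore does not show that the members were unchanged. Probe coordinates are hg18, and names of 30 members were matched by accession to RefSeq.

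The members, lists and tests were chosen with earlier results of these data known. Values on every array are given for the brightest probe of members that were called, of the 6 with the largest difference in each of the duplex and set comparisons, of MVK and HSD17B7, and of 4 regulators, and estimates of all probes where they disagree in direction. Alternatives were quantile normalization, normexp correction with an offset of 50, other filters, the authors' values, other blocks, gene summaries, miR-520f added, and arrays left out in turn. The sequence of dsEcad640 and array sample 5 were not analysed here. The values of 1 gene of the further list are not reported here.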

Additional observations from a re-analysis of the deposited data

How the results depend on the processing

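Under the common-seed duplexes 1 member probe was called lower. The count was 2 after normexp correction (5.36% of all probes called), 0 without a filter (0.541%), and 3 with a filter on all 11 arrays (9.80%), with the authors' normalized values (9.38%), with the set as a random block (5.46%) and with miR-520f added (5.47%). Leaving out mock and miR-372 arrays one at a time, it ranged from 0 to 1, with 0 without mock sample 1, 8 or 9, where 0.0885%, 1.04% and 1.52% of all probes were called in place of 4.19%. Between the sets of mock arrays there were 8 lower and 5 higher calls, with 33.0% of all probes called. They became 6 lower and 8 higher after quantile normalization (35.9%), and 18 lower and 9 higher after normexp correction (61.9%). Without a filter they were 7 lower and 3 higher (37.9%), and in a fit of all 11 arrays 2 lower and 2 higher (18.2%). With 1 mock array left out they ranged from 3 to 14 lower and from 0 to 17 higher, and the share over all probes from 12.5% to 54.7%. For miR-520f, which had 1 array, against the common-seed duplexes, SC5DL was called lower after quantile normalization and without miR-372 sample 4. In both settings more probes over the whole array were called than in the main fit. In single-duplex fits with an array left out, member probes were called for dsEcad640, miR-302a and miR-372. The fits with such calls had 1 array of the duplex and 1 residual degree of freedom. In each of them the share called was higher over all probes than among the members, where the main fits had called 0. Nothing particular to the members can therefore be read from these calls. The fits of miR-520f and miR-373 without mock sample 8 could not be made. Set comparisons were not run on the authors' values, which were normalized by set. The cause of these changes was not tested.

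Among the probes whose values on every array are given, some estimates changed sign. They were without a call on either side of 0, except for MVK between sets without mock sample 9. Under the common-seed duplexes they were NSDHL without a set block (0.0428), SCAP after quantile normalization (-0.0072) and with the authors' values (-0.0090), ACACA, which ranged from -0.0876 to 0.18 with an array left out, and SREBF2, from -0.0063 to 0.15. Between sets they were STARD4 after normexp correction (-0.20) and, with an array left out, MVK from -0.0868 to 0.35, INSIG1 from -0.0418 to 0.0717 and STARD4 from -0.0823 to 0.24. Other member probes also changed sign with the scaling. Between sets, ACACA A_32_P215318 went from 0.46 to -0.57 and SC5DL A_32_P41026 from 0.73 to -0.47 after normexp correction, each called on both sides, and LSS A_24_P162211 went from 0.10 without a call to -0.67 (adjusted p = 0.00377 in limma). SC4MOL, FADS1, ACLY and 2 other LSS probes changed sign between sets without a call, as did LSS, ACACA, FADS2, ACSS2 and SREBF2 with single probes under the common-seed duplexes. The fits pair arrays through the set, and no pairing by sample number was made because groups share no numbers. Probes close to background, with 1 array for most duplexes, limit what can be resolved.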
